A study of Mus musculus with 3 samples.

Results

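Cytosolic ribosomal protein genes were described in nuclei of mouse epididymal adipose tissue at 3 stages of diet-induced obesity. The members were the rows whose symbol is Rpl or Rps followed by a number, with an optional ending a, l, x or y, together with Rplp0, Rplp1, Rplp2 and Rpsa, leaving out pseudogene symbols and the Rps6k kinases. This rule found 80 of the 29625 gene identifiers in the tables, 49 named for the large subunit and 31 for the small subunit. All 80 were listed in Ctrl and in Ob and 79 in Mid_Ob, where Rpl10l was not listed, and Rps4l was listed in no library. Levels are given as CPM, in which the unique molecular identifiers (UMIs) of a gene are divided by all UMIs of the same library or cluster and scaled to a fixed total of 1e6.

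Male C57BL/6J mice were bought at 5 weeks of age and kept for 1 week before feeding, and the age at sampling was not given. The Ctrl group was fed an ordinary diet. The other groups were fed a diet of 60% fat until body weight exceeded the Ctrl mean by more than 10% (Mid_Ob) or 20% (Ob). Nuclei of 8 mice were pooled into 1 library for each stage, so no stage had a replicate, no test between stages was possible, and the 95% intervals given cover counting error only. In pooled nuclei, a different mix of cells and a different amount of RNA per nucleus cannot be told apart in a value for a whole library.

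Each cytosolic ribosome is built from a large and a small subunit, and nearly every ribosomal protein is present in a single copy per ribosome, so cells make their mRNAs in step. These mRNAs begin with a run of pyrimidines, the terminal oligopyrimidine (TOP) motif, through which the mTORC1 kinase and the protein Larp1 control their translation. As mature mRNAs on ribosomes they lie mostly in the cytoplasm, and their part in a nuclear library is therefore small compared with whole cells. Male germ cells are known to use separate copies of a few ribosomal protein genes, and the sex chromosomes are silenced there during meiosis.

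Start regions and coding sequences are shown for the genes on which the later results turn. Within 10 bases on either side of the RefSeq transcript start (GRCm38.p6), 31 of the 60 members with a promoter entry (51.7%) held an unbroken run of at least 6 C or T, against 23.0% of 27025 genes. The windows below are 30 bases read in the direction of transcription, with the longest run of C or T near the start in capitals. Rplp2, Rps6 and Rps27 are shown as members with a long run, and Rpl39, Rpl39l and Rpl3l because the later results on copies turn on them.
Rplp2, chr7:141447636-141447665, plus strand: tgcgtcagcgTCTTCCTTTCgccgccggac
Rps6, chr4:86857353-86857382, minus strand: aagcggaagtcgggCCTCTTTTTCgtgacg
Rps27, chr3:90213634-90213663, minus strand: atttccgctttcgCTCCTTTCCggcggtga
Rpl39, chrX:37085208-37085237, minus strand: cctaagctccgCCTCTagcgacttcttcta
Rpl39l, chr16:10170213-10170242, plus strand: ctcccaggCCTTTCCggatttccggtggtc
Rpl3l, chr17:24727811-24727840, plus strand: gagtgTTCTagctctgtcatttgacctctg

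Over 300 bases around the start, searched on both strands, CTTTCC was found in 32 of these 60 members (53.3%) and in 29.3% of all genes. CCGGAAG was found in 25 members (41.7%) and in 9.93% of all genes. The TATA box letters TATAAA were found in 6 members (10.0%) and in 15.7% of all genes. These are matches of letters only, the members without an entry were not searched, and the motifs were chosen after expression values had been seen.

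Rpl39l, on chromosome 16, is a copy of the X-linked gene Rpl39, and both have 3 exons. Their coding sequences are each 156 bases long and differ at 23 positions (85.3% identity), shown in capitals, and no stretch of 60 bases of Rpl39l was shared with another transcript.
Rpl39: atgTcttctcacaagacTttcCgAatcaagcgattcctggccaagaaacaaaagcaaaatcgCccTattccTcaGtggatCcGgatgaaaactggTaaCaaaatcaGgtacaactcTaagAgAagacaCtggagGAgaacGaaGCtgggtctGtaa
Rpl39l: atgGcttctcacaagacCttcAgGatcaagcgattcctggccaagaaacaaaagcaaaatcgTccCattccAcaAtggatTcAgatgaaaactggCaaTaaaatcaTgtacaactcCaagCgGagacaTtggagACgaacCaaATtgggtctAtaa

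The libraries held 53980929 UMIs in 14 clusters (Ctrl), 57665213 in 11 (Mid_Ob) and 111595518 in 21 (Ob). Clusters were named from marker genes as "like" a cell type where the markers allowed it. The content of the libraries touches every result. Ctrl contained 4 germ cell-like clusters, 1 testis somatic-like and 1 epididymal epithelium-like cluster, Mid_Ob contained 2 epididymal epithelium-like clusters, and none was found in Ob. In addition, 4 clusters (Ctrl 1, Mid_Ob 5, Ob 13 and Ob 18) carried markers of many cell types together with hemoglobin or mitochondrial genes and were left unnamed, and these are called mixed clusters here. Mitochondrial genes made up 6.18% of the UMIs of Ob 13 and 8.39% of those of Ob 18, above the limit of 5% per nucleus that the study's methods give, so the tables hold nuclei above that limit.

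Ribosomal protein mRNAs took a larger share of UMIs at each stage of weight gain. They made up 0.275% of the Ctrl library (interval 0.273 to 0.276), 0.384% of Mid_Ob (0.382 to 0.385) and 0.749% of Ob (0.748 to 0.751). The summed level was 1.40-fold higher in Mid_Ob than in Ctrl (1.39 to 1.41), 1.95-fold higher in Ob than in Mid_Ob (1.94 to 1.96) and 2.73-fold higher in Ob than in Ctrl (2.71 to 2.74). The sizes of these differences depended on both kinds of cluster described above. Without the testis and epididymis clusters the shares were 0.308%, 0.333% and 0.749%, and Mid_Ob was 1.08-fold above Ctrl. Without the mixed clusters they were 0.252%, 0.368% and 0.504%, and Ob was 1.37-fold above Mid_Ob and 2.0004-fold above Ctrl.

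The mixed clusters held 10.2% of the ribosomal protein UMIs of Ctrl, 4.88% of those of Mid_Ob and 34.5% of those of Ob, from 2.16%, 0.812% and 2.72% of all UMIs. Ob clusters 13 and 18 had the highest shares of all, 7.64% and 10.7%, and Rplp0 and Rpl32 were among the 10 leading genes of cluster 18. The share ranged over clusters from 0.175% to 1.29% in Ctrl (median 0.289%), from 0.227% to 2.31% in Mid_Ob (0.437%) and from 0.304% to 10.7% in Ob (0.731%).

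**Figure D1:**
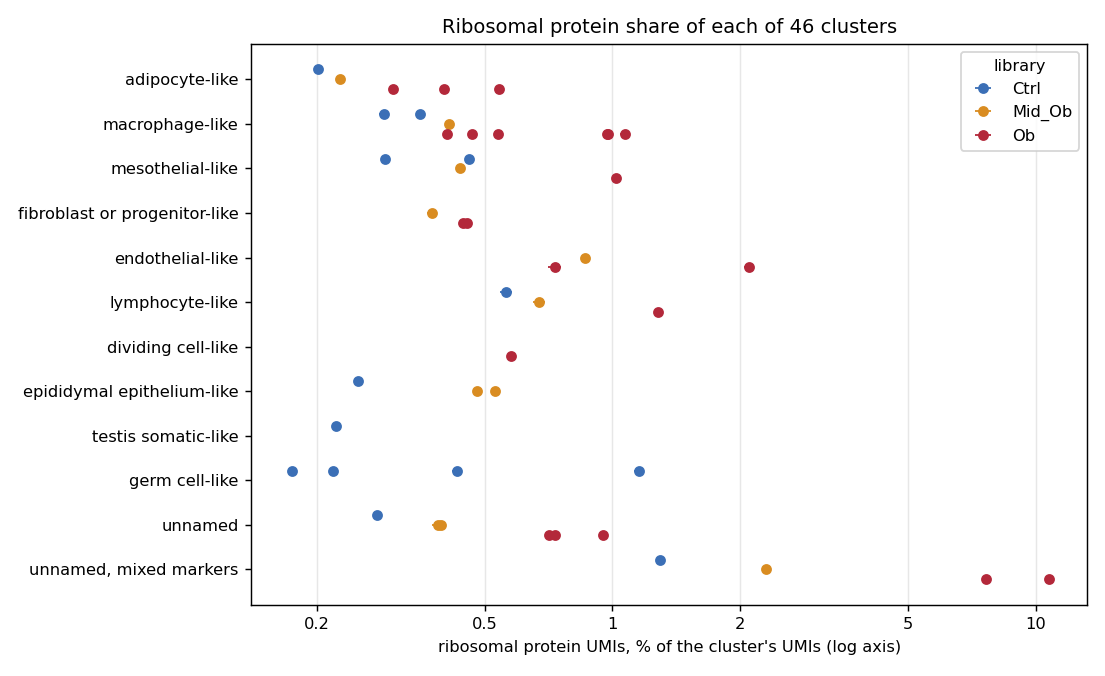
Share of UMIs from ribosomal protein genes in each of 46 clusters, grouped by cell class on the vertical axis, with percent of the cluster's UMIs on a logarithmic horizontal axis and color marking the library. Within the adipocyte-like class, Ctrl lies at 0.201%, Mid_Ob at 0.227% and the 3 Ob clusters at 0.304%, 0.400% and 0.540%, while the mixed clusters of Ob reach 7.64% and 10.7%.

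The higher level in Ob was also found within cell classes. In adipocyte-like clusters, which carried 10 to 14 of 14 adipocyte markers, the share was 0.201%, 0.227% and 0.389% from Ctrl to Ob. The summed ratios were 1.13 (1.11 to 1.14) for Mid_Ob over Ctrl, 1.71 (1.70 to 1.73) for Ob over Mid_Ob and 1.93 (1.91 to 1.96) for Ob over Ctrl. All 3 adipocyte-like clusters of Ob were above both earlier stages. Past 1.5-fold, with at least 50 UMIs in the pair, 8 of 79 members were higher in Mid_Ob than in Ctrl, where 15.3% of all genes compared were. From Mid_Ob to Ob 58 of 78 were higher (15.3% of all genes), and from Ctrl to Ob 60 of 79 (18.8% of all genes). Among them, Rpl29 was 4.17-fold higher in Ob than in Ctrl (3.36 to 5.23), Rps16 3.22-fold (2.85 to 3.66) and Rpl39 3.10-fold (2.72 to 3.54). Rpsa and Rpl8 were at 0.679 (0.599 to 0.770) and 0.703 (0.613 to 0.806) of their Ctrl level in Mid_Ob, within the 1.5-fold limit.

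In macrophage-like clusters the share was 0.321%, 0.411% and 0.628% from Ctrl to Ob. The summed ratios were 1.28 (1.25 to 1.31), 1.53 (1.502 to 1.55) and 1.96 (1.92 to 1.99) in the same order of comparisons. Members past 1.5-fold higher numbered 22 of 77 (8.71% of all genes), 39 of 78 (13.1%) and 61 of 77 (13.7%). Rpl28 at 3.51-fold (2.85 to 4.36), Rpl39 at 3.50-fold (2.92 to 4.25) and Rpl41 at 3.37-fold (3.01 to 3.77) had the highest ratios of Ob over Ctrl in this class. The 6 macrophage-like clusters of Ob spread from 0.407% to 1.07% and the 2 of Ctrl from 0.288% to 0.351%, with the single Mid_Ob cluster at 0.411%, so Ob and Mid_Ob overlapped. The mesothelial-like clusters had shares of 0.337%, 0.437% and 1.02% from Ctrl to Ob, a 3.03-fold difference between Ob and Ctrl (2.97 to 3.09), and 76 of 78 members were higher, against 15.3% of all genes. In the lymphocyte-like clusters the shares were 0.559%, 0.670% and 1.28%, a 2.29-fold difference (2.20 to 2.38), with 67 of 77 members higher and 17.4% of all genes. The fibroblast or progenitor-like clusters were at 0.375% in Mid_Ob and 0.449% in Ob, and the endothelial-like clusters at 0.860% and 1.34%. Of the latter, Ob cluster 16 had a share of 2.10% beside 10015 CPM of hemoglobin. Beside 10 of 11 endothelial markers it carried 13 of 14 adipocyte, 9 of 13 fibroblast or progenitor and 6 of 10 mesothelial markers. Its leading genes included Ptprb, Cyyr1 and Flt1 as well as Hbb-bt, and it was not counted among the mixed clusters. The other endothelial-like cluster of Ob, cluster 21, was at 0.731%, below the Mid_Ob share.

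Other RNAs moved with these shares, and their part in the results was not tested. Hemoglobin mRNA, which belongs to red blood cells, was at 25.7, 12.4 and 238 CPM in the adipocyte-like clusters of Ctrl, Mid_Ob and Ob and at 89.0, 23.7 and 312 CPM in the macrophage-like clusters. A list of 10 abundant cytosolic mRNAs summed to 457, 514 and 1349 CPM in the adipocyte-like clusters. In macrophage-like clusters this list was at 1353, 1239 and 2521 CPM. It was at 801, 968 and 2980 CPM in mesothelial-like clusters and at 1628, 1540 and 3800 CPM in lymphocyte-like clusters. In each of these classes the list was thus highest in Ob, as the ribosomal protein share was. The mitochondrial share of the adipocyte-like clusters was 0.132%, 0.2497% and 0.251%, so it was nearly level between Mid_Ob and Ob where ribosomal protein mRNAs differed 1.71-fold. In macrophage-like clusters it was lower in Ob (0.240%) than in Mid_Ob (0.382%) while the ribosomal protein share was higher. In mesothelial-like clusters both went up together, the mitochondrial share from 0.225% in Ctrl to 0.565% in Mid_Ob and then 0.699% in Ob, and hemoglobin was at 51.3, 43.2 and 1031 CPM. In lymphocyte-like clusters the mitochondrial share was 0.427%, 0.623% and 0.531% and hemoglobin 98.8, 62.7 and 574 CPM.

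**Figure D2:**
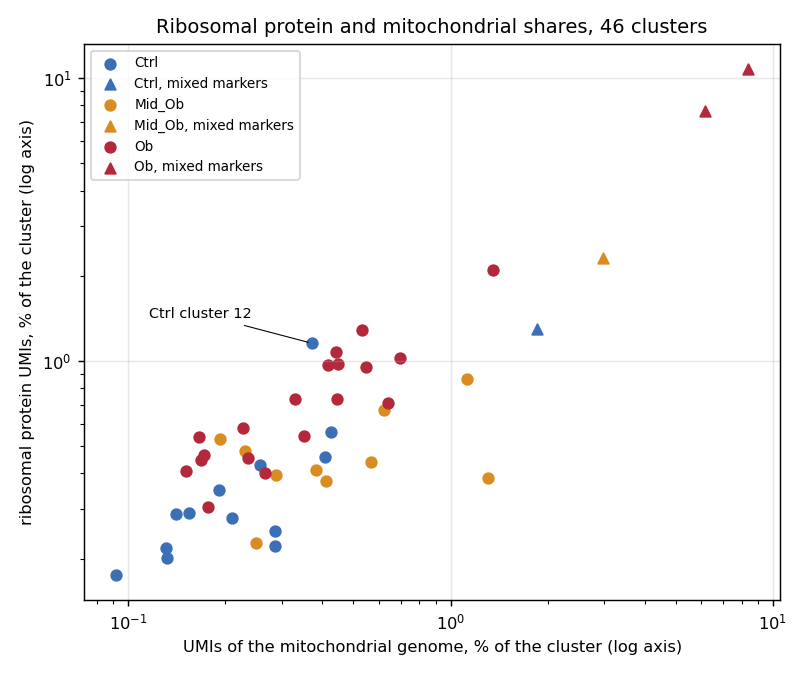
Ribosomal protein share against the share of UMIs from the mitochondrial genome for the 46 clusters, both in percent of a cluster's UMIs on logarithmic axes, with color marking the library. The mixed clusters lie at the upper right and Ctrl cluster 12, a germ cell-like cluster, lies at 1.15% ribosomal protein and 0.371% mitochondrial UMIs.

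Across the 46 clusters the ribosomal protein level followed the mitochondrial genes with a Spearman rho of 0.74 (0.66 over 42 clusters without the mixed ones). Within libraries it was 0.80 (Ctrl), 0.34 (Mid_Ob) and 0.86 (Ob). The clusters of one library share its RNA background and differ in depth, and these correlations are given as a description.

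Between whole libraries 75 of 80 members stood past 1.5-fold higher in Ob than in Ctrl, against 18.1% of 22268 genes compared. In Mid_Ob over Ctrl, 31 of 80 members were past 1.5-fold higher, against 17.3% of 22208 genes compared, and 2 were lower (Rpl10l and Rpl39l), against 35.5% of genes. In Ob over Mid_Ob, 69 of 78 members were higher (17.5% of 19814 genes) and Rpl3l alone was lower (27.3% of genes). In Ob over Ctrl, Rpl10l, Rpl39l and Rpl3l were lower (43.5% of genes), which left only Rpl4 and Rpl31 inside the limits. Without the testis and epididymis clusters the ratio of Rpl3l moved from 0.269 to 0.865 (0.488 to 1.62), inside the limits too. The median log2 ratio of the members was 0.47, 0.97 and 1.48 in these comparisons, and that of all genes was -0.16, -0.09 and -0.35. Without the testis and epididymis clusters 6 members remained higher in Mid_Ob than in Ctrl (15.6% of all genes), namely Rpl19, Rpl28, Rpl35, Rpl36a, Rpl3l and Rps26, and 19 members turned direction, none of them past the limit in the whole libraries. Without the mixed clusters 29 were higher in Ob than in Mid_Ob (16.9% of all genes) and 64 higher in Ob than in Ctrl (17.9%), and each of these was also among the 69 and the 75.

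**Figure D3:**
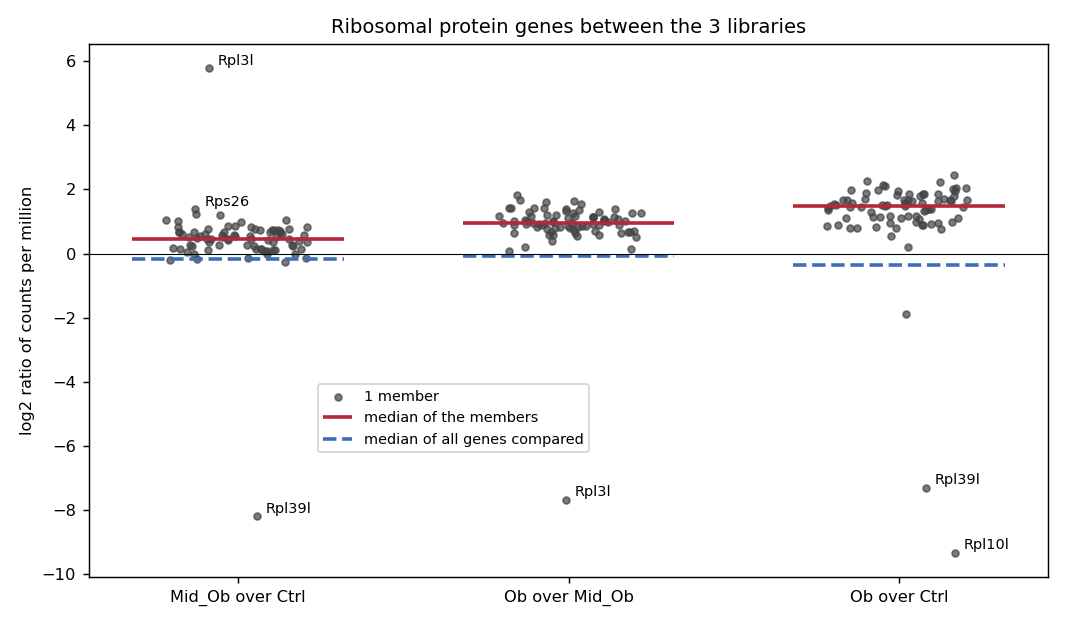
Log2 ratio of CPM between libraries for each member with at least 50 UMIs in the pair, with the median of the members as a solid line and that of all genes compared as a dashed line. Rpl39 is the highest member in Ob over Ctrl at 2.44, while Rpl3l, Rpl39l and Rpl10l lie far from the others. Rpl10l is not drawn for Mid_Ob over Ctrl because it had no UMI in Mid_Ob.

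The stalk proteins, which recruit translation factors to the large subunit, differed by gene. Rplp0 was at 31.8, 45.8 and 101 CPM from Ctrl to Ob, and Ob was 3.17-fold above Ctrl (3.01 to 3.34), or 2.04-fold without the mixed clusters (1.93 to 2.16). Rplp1 was at 66.9, 79.5 and 209 CPM (3.13-fold, 3.02 to 3.24). Rplp2 was at 45.1, 49.6 and 95.9 CPM, and its ratio of Ob to Ctrl had an interval of 2.03 to 2.22, below those of Rplp0 and Rplp1. All 3 genes were higher in Mid_Ob than in Ctrl, but without the testis and epididymis clusters the ratio turned to 0.859 for Rplp1 (0.813 to 0.908) and 0.829 for Rplp2 (0.776 to 0.886).

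Members with roles outside the ribosome were higher in Ob as well. Rpl5 and Rpl11, which bind Mdm2 with 5S rRNA when ribosome assembly fails, were at 34.8, 48.3 and 77.1 CPM and at 31.2, 47.9 and 90.7 CPM from Ctrl to Ob. Their Ob over Ctrl ratios were 2.21 (2.11 to 2.33) and 2.91 (2.76 to 3.06). Rps6, the substrate of the S6 kinases, had one of the smaller differences, at 27.5, 31.2 and 48.3 CPM (1.75-fold, 1.66 to 1.86), and its ratio of Mid_Ob to Ctrl was 0.959 without the testis and epididymis clusters (0.878 to 1.05). Rps27a, which is made as a fusion with ubiquitin, was at 47.85, 57.6 and 129 CPM, and Ob was 2.69-fold above Ctrl (2.58 to 2.80). Rpsa, a small-subunit protein also known as a laminin receptor precursor, was at 41.1, 36.9 and 89.3 CPM, so it was slightly lower in Mid_Ob than in Ctrl and 2.17-fold higher in Ob than in Ctrl (2.07 to 2.27). Rpl22, an RNA-binding large-subunit protein, was at 27.4, 37.7 and 68.5 CPM (2.50-fold, 2.37 to 2.65).

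After Rpl3l, which is described with the other copies, the members farthest above the summed level in Mid_Ob over Ctrl were Rps26, Rpl39, Rpl36a, Rpl28 and Rpl6. Rps26, a protein at the mRNA exit of the small subunit, went from 31.8 CPM in Ctrl to 83.0 in Mid_Ob and 94.7 in Ob, so it was 2.61-fold higher in Mid_Ob than in Ctrl (2.47 to 2.76) and 1.14-fold higher in Ob than in Mid_Ob (1.10 to 1.18). Without the mixed clusters the latter ratio turned, to 0.878 (0.846 to 0.911). Rpl39 was 2.33-fold higher in Mid_Ob (2.18 to 2.50). Without the testis and epididymis clusters these ratios to Ctrl were 1.94 for Rps26 and 1.38 for Rpl39. Rpl36a, Rpl28 and Rpl6 had ratios of 2.28, 2.06 and 2.04. On the lower side were Rpl8 (0.826), Rpl35a (0.870), Rpsa (0.896) and Rps27l (0.901), none of them past the limit.

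In Ob over Mid_Ob several small-subunit members stood far above the sum. Rps27l had a ratio of 3.57 (3.29 to 3.89), and Rps20 (3.15), Rps4x (3.09), Rps15a (2.89) and Rps16 (2.70) were also among the highest. Rpl4 (1.06, 0.993 to 1.14), Rps27 (1.10), Rps26 (1.14), Rpl36 (1.30) and Rpl13a (1.44) stayed closest to their Mid_Ob level, and for Rpl4 the interval included 1. The direction of 4 of these rested on the mixed clusters, without which the ratios were 0.839 for Rpl4 (0.781 to 0.903), 0.810 for Rps27 (0.778 to 0.843), 0.878 for Rps26 and 0.990 for Rpl36 (0.945 to 1.04). Rps4x was at 1.98 without them (1.87 to 2.10). In Ob over Ctrl, Rpl39 had the highest ratio between whole libraries, at 20.99, 49.0 and 114 CPM (5.41-fold, 5.09 to 5.76). Rps4x, the X-linked small-subunit gene, was at 17.9, 27.8 and 85.8 CPM (4.81-fold, 4.50 to 5.14), and Rpl29 at 11.04, 19.8 and 51.4 CPM (4.65-fold, 4.28 to 5.07). Rps2 (4.30) and Rps19 (4.14) were also among the highest. This order is that of whole libraries. Without the mixed clusters the Rpl39 ratio was 4.04. Without the testis and epididymis clusters the ratios of Rpl39 and Rps4x were smaller, and that of Rpl39 was below that of Rpl29.

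The smallest difference between Ob and Ctrl was that of Rpl4, a large-subunit protein of the exit tunnel, with 20.2 CPM in Ctrl and 23.2 CPM in Ob (1.15-fold, 1.07 to 1.23). The direction of this difference was not stable, with a ratio of 0.926 without the mixed clusters (0.858 to 1.0006) and 0.997 without those of testis and epididymis (0.916 to 1.09). Rpl31 was at 23.8, 23.5 and 34.9 CPM (1.47-fold, 1.38 to 1.57), Rpl7a had a ratio of 1.70 and Rpl8 of 1.73. Rpl31 overlaps Tbc1d8 on the opposite strand, and how strand was used in counting is not given in the sources used here. In all, 23 members overlapped a long gene, 5 of them on the same strand. Of each member's annotated sequence, a median of 17.9% lay in stretches of 60 bases that another transcript shares exactly, and in 4 members (Rpl36, Rpl19, Rplp1 and Rpl24) more than 50% did. Levels of these genes can be low where reads that match several places were dropped.

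The spread of each member over clusters was compared within a library. The ratio of a member's highest cluster to its median cluster had a median of 4.54, 5.45 and 14.8 from Ctrl to Ob. In Ob the 8 most variable members all peaked in mixed cluster 18, among them Rplp0 (24.3), Rpl32 (21.7), Rps2 (18.9), Rpl13, Rps12, Rpsa and Rps19. Rplp0, for example, was at 1890 CPM there and between 32.8 and 263 CPM in the 19 Ob clusters that were not mixed. In Mid_Ob the mixed cluster 5 was the peak of Rpl29 (7.60), Rplp1 (7.53), Rpl28, Rpl39, Rpl34, Rps10 and Rpl32, and Rpl3l peaked elsewhere, in cluster 2. In Ctrl the pattern was different. Rpl39l, Rpl30, Rpl34, Rps13, Rpl35a and Rps23 peaked in germ cell-like cluster 12, with ratios of 31.5, 12.5, 12.3, 12.2, 10.9 and 7.62, Rpl3l in epididymal cluster 8 and Rpl39 in mixed cluster 1.

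Germ cell-like cluster 12 of Ctrl had the set of ribosomal protein mRNAs that differed most from the rest of its library. Its markers were those of spermatids (9 of 10 above 2-fold over the median of the other clusters) and spermatocytes (7 of 9), and its ribosomal protein share was 1.15% (1.12 to 1.19), the highest of the named Ctrl clusters. The share of each member among the ribosomal protein UMIs of the cluster was set against its share in all other clusters of the library. Of 79 members with enough UMIs, 43 lay outside 1.5-fold in cluster 12, 12 above and 31 below, compared with 0 to 13 members in the other Ctrl clusters, 1 to 5 in Mid_Ob and 0 to 5 in Ob. Besides Rpl39l (6.27-fold, 5.46 to 7.19) and Rpl10l (2.65-fold, 1.73 to 3.92), the genes above were Rpl34 (3.02), Rps13 (2.99), Rpl30 (2.97), Rpl35a (2.61), Rps23 (1.97), Rps27l (1.95), Rpl24 (1.92), Rps26 (1.82), Rps27 (1.78) and Rpl37a (1.66). The lowest were Rpl10a at 0.177 of its share elsewhere (0.0987 to 0.292), Rpl39 at 0.191 (0.0822 to 0.377) and Rpl10 at 0.218 (0.122 to 0.361). The cluster held 5327 ribosomal protein UMIs. The same count was not made for all genes, so these numbers compare clusters and do not set the members apart from other genes.

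**Figure D4:**
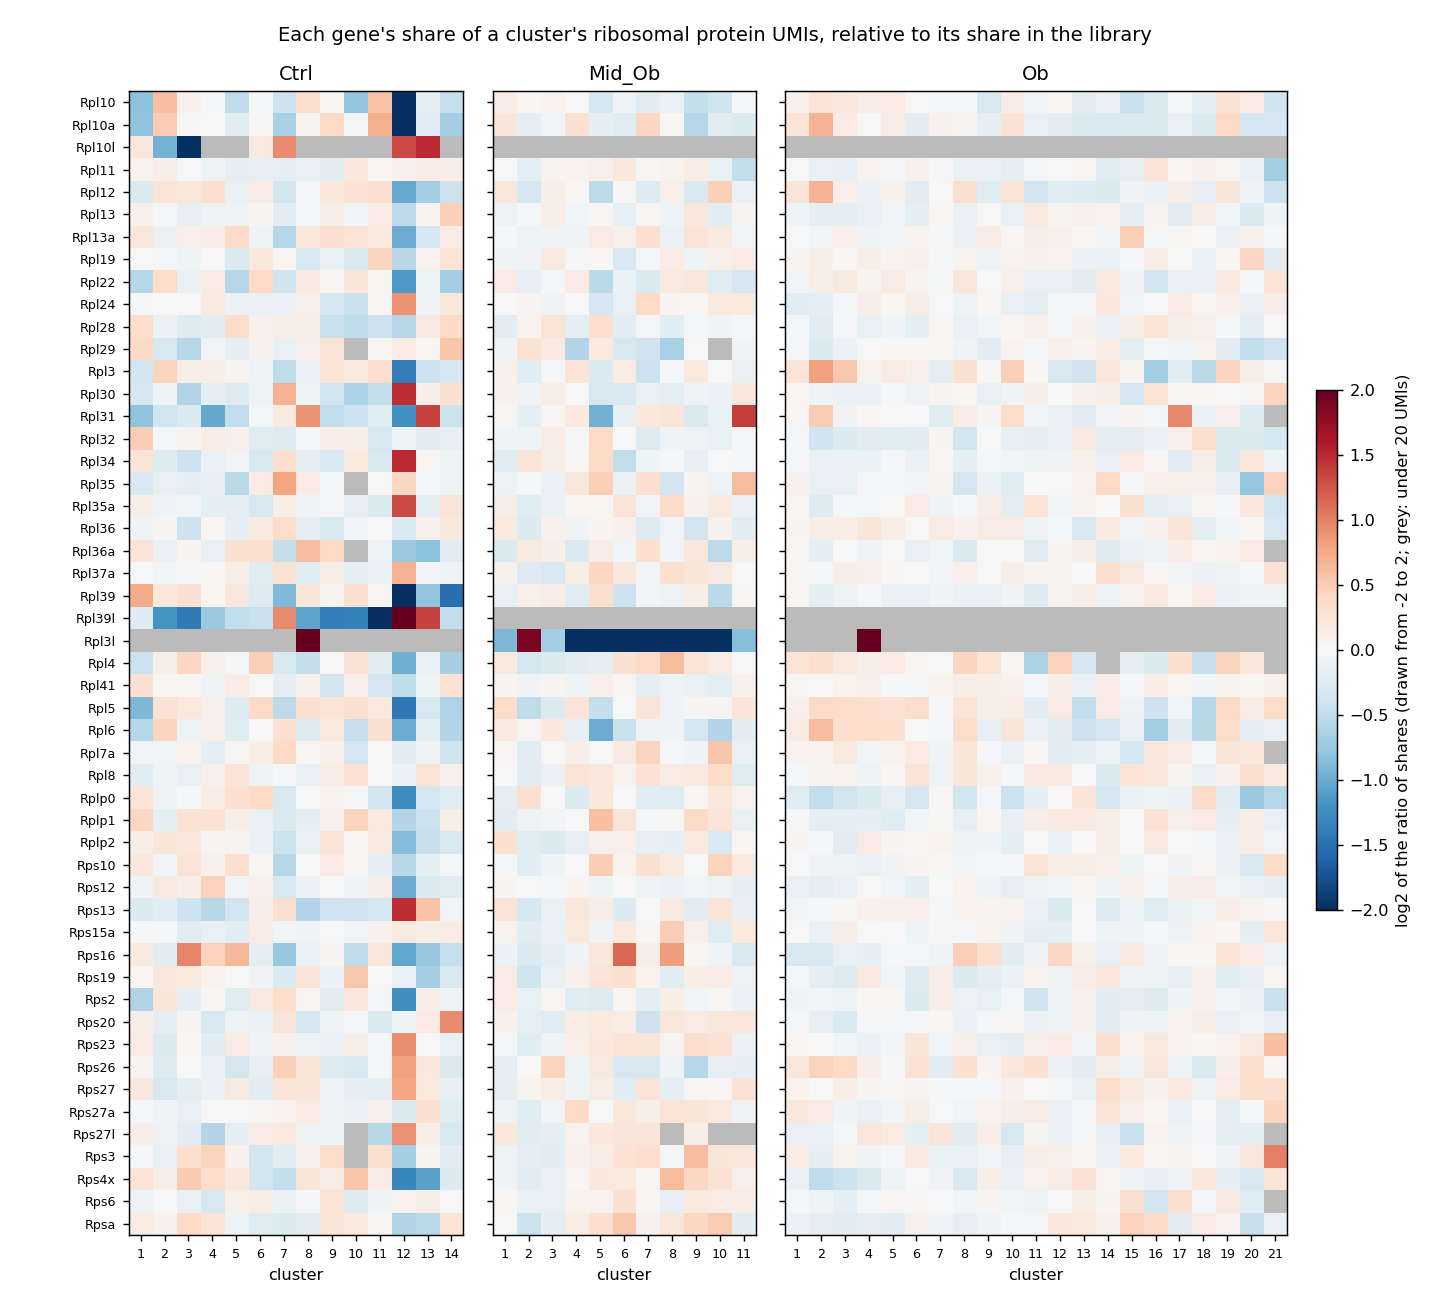
Log2 ratio of each gene's share of a cluster's ribosomal protein UMIs to its share in the whole library, for the members named in the text on the vertical axis and the clusters of each library on the horizontal axis, with red above and blue below 0 and grey for pairs with under 20 UMIs both counted and expected. The column of Ctrl cluster 12 carries many dark cells, while most cells of Mid_Ob and Ob are pale, apart from Rpl3l and single genes such as Rps16 in Mid_Ob cluster 6.

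The 4 X-linked members, Rpl10, Rpl36a, Rpl39 and Rps4x, made up 0.976% of ribosomal protein UMIs in cluster 12 (0.730 to 1.28). In the other 3 germ cell-like clusters they made up between 2.13% and 2.16%. The remaining 10 Ctrl clusters lay between 2.96% and 3.99%, those of Mid_Ob between 3.69% and 4.83% and those of Ob between 4.24% and 4.99%. The germ cell-like clusters were thus below every other cluster, and Ob and Mid_Ob overlapped. This grouping was chosen after the values had been seen.

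Rpl39l and Rpl10l, autosomal copies of X-linked genes known from the testis, were found almost entirely in Ctrl. Rpl39l had 1372, 5 and 18 UMIs from Ctrl to Ob, which is 25.4, 0.0867 and 0.161 CPM. In cluster 12 it reached 563 CPM (497 to 636) and supplied 97.0% of the UMIs of Rpl39 and Rpl39l together (94.2 to 98.7), against 31.4% in the adipocyte-like cluster of Ctrl. In the other germ cell-like clusters, 7, 13 and 14, it supplied 81.1%, 84.2% and 71.2%. In testis somatic-like cluster 6 it supplied 51.4% (45.0 to 57.9). The germ cell-like clusters held 58.2% of its UMIs and 26.3% of all UMIs of the library. Rpl10l is a gene of 1 exon on chromosome 12 (chr12:66283379-66284401, GRCm38), where Rpl10 has 7, and their coding sequences of 645 bases differ at 98 positions (84.8% identity). It had 311, 0 and 1 UMIs from Ctrl to Ob, so it was at least 111-fold lower in Mid_Ob than in Ctrl, with a floor of 3 counts for the library. It reached 60.7 CPM (40.3 to 87.7) in cluster 12, where it supplied 65.1% of the UMIs of the pair (49.1 to 79.0) and Rpl10 had 15 UMIs.

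Both copies were detected in every cluster of Ctrl, at 6.16 to 563 CPM for Rpl39l and 1.32 to 60.7 CPM for Rpl10l. In the adipocyte-like clusters Rpl39l was at 8.15 CPM in Ctrl and 0.0370 CPM in Mid_Ob, the latter from 1 UMI. A list of 10 spermatid markers was likewise present in every Ctrl cluster, with all 10 genes detected and a summed level of 197 to 10107 CPM, and stood at 13.8 CPM in Mid_Ob and 2.71 CPM in Ob. The part of germ cell RNA in the levels of these genes outside the germ cell-like clusters was not tested.

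Rpl3l, a copy of Rpl3 on chromosome 17 (chr17:24727820-24736143, GRCm38) that is best known from heart and skeletal muscle, stood out in Mid_Ob. It had 97, 5689 and 54 UMIs from Ctrl to Ob, which is 1.80, 98.7 and 0.484 CPM, a 54.9-fold difference between Mid_Ob and Ctrl (44.9 to 67.8). Epididymal epithelium-like clusters held 81.0% of its UMIs in Mid_Ob. In cluster 2 it was at 501 CPM (485 to 517) and supplied 91.3% of the UMIs of Rpl3 and Rpl3l together (90.4 to 92.1), and in cluster 3, also epididymal, it was at 76.9 CPM. In Ctrl its highest level was in the epididymal cluster 8 too, at 17.4 CPM (12.9 to 23.0), with 40.3% of the UMIs of the pair. Rpl3 itself did not show this pattern and was at 30.9, 40.1 and 67.2 CPM in the 3 libraries, with a ratio of Mid_Ob to Ctrl that turned to 0.917 without the testis and epididymis clusters (0.848 to 0.992).

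Rpl3l was also counted in the other clusters of Mid_Ob, at 5.10 to 85.4 CPM, with 31.5 CPM in the adipocyte-like cluster against 0.881 CPM in that of Ctrl. In the adipocyte-like cluster of Mid_Ob it supplied 55.5% of the UMIs of Rpl3 and Rpl3l together (52.9 to 58.0). The figure was 60.9% in epididymal cluster 3 and 60.3% in unnamed cluster 11 (51.0 to 69.1). All 15 epididymal markers of the list were detected in every Mid_Ob cluster, with summed levels of 1616 to 24632 CPM, and 7 of them (Lcn5, Lcn6, Lcn8, Lcn9, Lcn10, Rnase9 and Defb18) were at 0 in Ob. Their part in the level of Rpl3l outside the epididymal clusters was not tested. Rpl3 and Rpl3l coding sequences are 76.0% identical, and no stretch of 60 bases of Rpl3l was shared with another transcript.

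**Figure D5:**
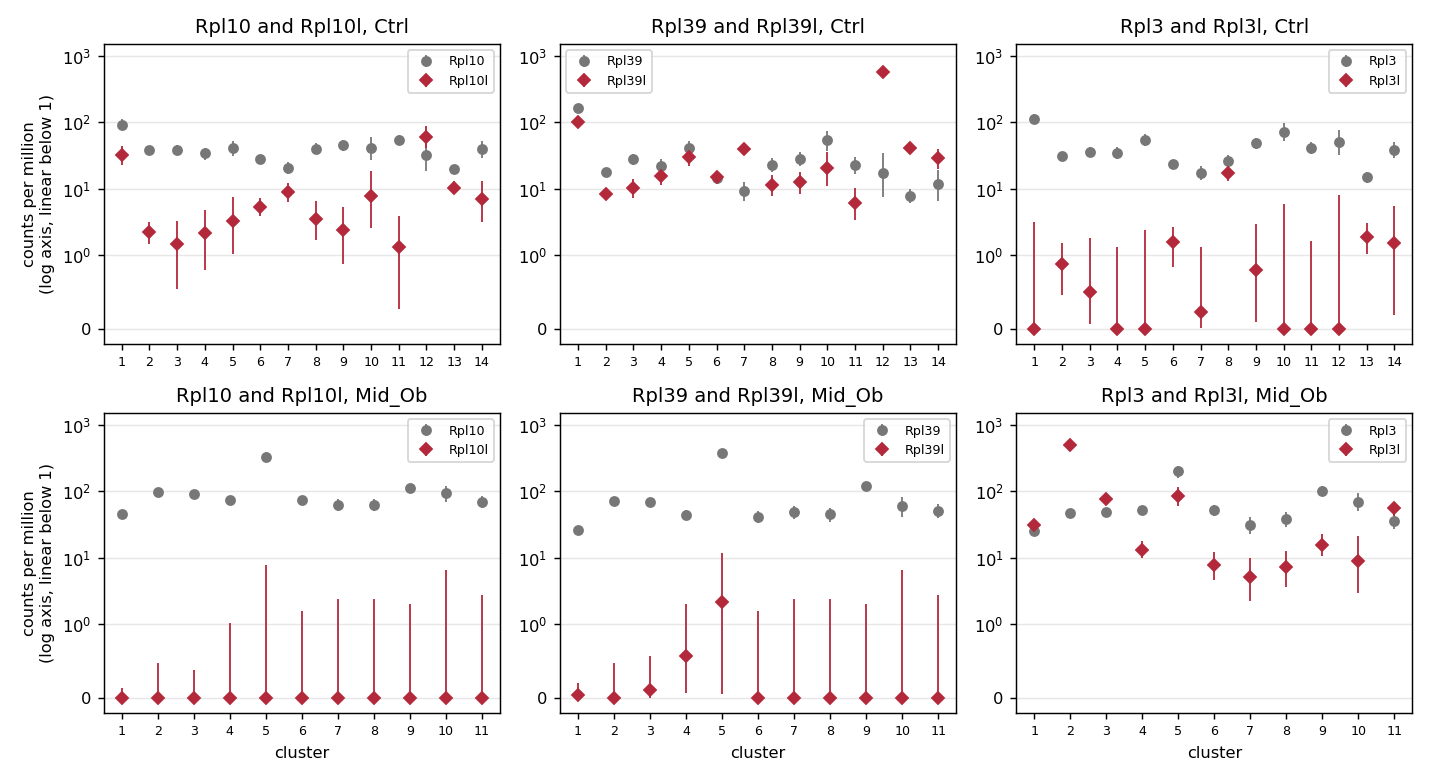
Level of Rpl10l, Rpl39l and Rpl3l (diamonds) and of Rpl10, Rpl39 and Rpl3 (circles) in each cluster of Ctrl and Mid_Ob, in CPM on a logarithmic axis that is linear below 1, with 95% Poisson intervals for counting error. Rpl39l and Rpl10l exceed their counterparts in Ctrl cluster 12 at 563 and 60.7 CPM, and Rpl3l does so in Mid_Ob cluster 2 at 501 CPM. Rpl39l also lies above Rpl39 in Ctrl clusters 6, 7, 13 and 14, and Rpl3l above Rpl3 in Mid_Ob clusters 1, 3 and 11.

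Rps27l, the copy of Rps27 and a gene known to respond to p53, was counted in all 3 libraries. It was at 12.3, 11.1 and 39.5 CPM in Ctrl, Mid_Ob and Ob and supplied 22.3%, 13.2% and 32.9% of the UMIs of Rps27 and Rps27l together. Rps27 was at 42.9, 72.9 and 80.5 CPM. From Ctrl to Mid_Ob the copy was nearly level, with 663 and 638 UMIs and a ratio inside the 1.5-fold limit, while Rps27 was higher. The ratio of Ob to Mid_Ob was 3.57 for the copy and 1.10 for Rps27, the latter turning to 0.810 without the mixed clusters. Mixed clusters held 33.7% of the Rps27l UMIs of Ob, and in adipocyte-like clusters its ratio of Ob over Mid_Ob was 3.08 (2.66 to 3.58). Its coding sequence is 79.9% identical to that of Rps27 over 254 aligned bases.

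Some other members, named after their values were seen, took a larger share in single clusters. Rps16 took 2.13 times its share elsewhere in mesothelial-like cluster 3 of Ctrl (1.86 to 2.43), 2.35 times in mesothelial-like cluster 6 of Mid_Ob (2.07 to 2.65) and 1.83 times in the fibroblast or progenitor-like cluster of Mid_Ob. In mesothelial-like cluster 5 of Ctrl it made up 1.82% of ribosomal protein UMIs, against a median of 1.03% over the Ctrl clusters. In mesothelial-like cluster 12 of Ob no member was above 1.5-fold. Rpl31 took 3.07 times its share in germ cell-like cluster 13 of Ctrl, 2.72 times in Mid_Ob cluster 11 and 1.97 times in Ob cluster 17. The last 2 clusters are unnamed and share the leading genes Cdr1os and C230072F16Rik. In macrophage-like cluster 2 of Ob, led by Tm4sf19, Mmp12 and Gpnmb, 4 large-subunit genes were above 1.5-fold, Rpl3 (1.83, 1.68 to 1.99), Rpl10a (1.67), Rpl12 (1.66) and Rpl6 (1.60). Rps3 took 2.02 times its share in endothelial-like cluster 21 of Ob and 1.59 times in endothelial-like cluster 9 of Mid_Ob, but in endothelial-like cluster 16 of Ob, where no member was above 1.5-fold, its 0.642% of ribosomal protein UMIs equalled its median over the Ob clusters. By contrast, the mixed cluster 13 of Ob had 0 of 77 members outside 1.5-fold, and cluster 18 had 3, all below (Rpl5, Rpl6 and Rpl3), although their total shares were the highest of the data set.

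Other parts of the translation machinery were compared by lists, whose counts are read against the shares of all genes given above. Translation factors and other mRNAs with a TOP start had 2 of 18 genes higher and 2 lower in Mid_Ob over Ctrl, 5 higher and 0 lower in Ob over Mid_Ob, and 8 higher and 3 lower in Ob over Ctrl, with a median log2 ratio of 0.51 in the last. Eef1a1, the factor that delivers aminoacyl-tRNA, was at 110, 171 and 254 CPM, Tpt1 at 78.6, 92.5 and 270 CPM and Nap1l1 at 88.7, 99.1 and 145 CPM. Pabpc1, which binds poly(A) tails, was at 187, 92.6 and 104 CPM and so went the other way from Ctrl to Ob. Over the 46 clusters this list followed the members with a rho of 0.93, and 0.91 without the mixed clusters. The abundant cytosolic mRNAs stood close to this, at 0.89 and 0.86.

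Fewer genes for making ribosomes were higher than among the members, and their median was near that of all genes. In Ob over Ctrl 18.1% of all genes were higher and 43.5% lower, with a median log2 ratio of -0.35. Of 20 ribosome biogenesis genes 2 were higher and 4 lower in Ob over Ctrl (median log2 ratio -0.28), with Mdn1 at 155, 74.4 and 56.5 CPM, Ncl at 53.4, 53.7 and 51.7 CPM, Nop58 at 67.8, 44.3 and 38.8 CPM and Wdr12 at 53.2, 41.0 and 45.3 CPM. Of 15 genes of mTORC1 and its control of ribosomal protein translation, 3 were higher and 1 lower (median 0.07). Rptor was at 242, 224 and 213 CPM, Rps6kb1 at 164, 183 and 172 CPM, Larp1 at 169, 207 and 152 CPM and Larp4 at 134, 153 and 118 CPM. Over the 46 clusters the rho with the members was 0.08 for biogenesis and -0.18 for the mTORC1 list. Within single libraries the biogenesis list had a rho of 0.24 (Ctrl), 0.79 (Mid_Ob) and 0.41 (Ob).

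Mitochondrial ribosomal proteins, which are nuclear genes for a separate ribosome, had 21 of 78 genes higher and 3 lower in Ob over Ctrl (median 0.34). Mrps28 was at 142, 97.3 and 123 CPM, Mrps6 at 51.2, 129 and 115 CPM, Mrps9 at 85.7, 65.6 and 63.3 CPM and Mrpl1 at 57.0, 62.3 and 62.3 CPM. Of the 13 protein-coding genes of the mitochondrial genome 11 were higher and 1 lower in Ob over Ctrl, and the most abundant were mt-Co1 at 546, 886 and 1226 CPM, mt-Co3 at 491, 627 and 739 CPM, mt-Atp6 at 214, 406 and 675 CPM and mt-Co2 at 306, 453 and 500 CPM. All 10 abundant cytosolic mRNAs were higher in Ob than in Ctrl and than in Mid_Ob, among them Tmsb4x at 97.4, 158 and 498 CPM, Actb at 169, 142 and 458 CPM, Ftl1 at 69.7, 91.8 and 530 CPM and Fth1 at 37.8, 69.1 and 486 CPM. The 4 hemoglobin genes summed to 46.1, 31.98 and 542 CPM, of which Hbb-bs had 17.4, 14.8 and 257 CPM, Hba-a1 13.04, 7.98 and 137 CPM, Hba-a2 12.1, 6.03 and 107 CPM and Hbb-bt 3.54, 3.19 and 41.3 CPM. Of 6 nuclear RNAs 1 was higher and 1 lower. Malat1 was at 22035, 42022 and 54057 CPM, Gm42418 at 5579, 4356 and 1786 CPM, Neat1 at 2664, 2997 and 3031 CPM and Kcnq1ot1 at 406, 456 and 494 CPM. All 3 pseudogene rows with enough UMIs were also higher in Ob.

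Among 10002 genes with at least 500 UMIs in each library, the genes whose level over the 46 clusters was most like the summed members were Fau (rho 0.98), Eef1b2 (0.96), Gng5 (0.96), Tpt1 (0.95), Tma7 (0.94), Gabarap (0.93), Cox7c (0.93), Rps3a1 (0.93), Pfdn5 (0.93) and Uqcr11 (0.93). Fau, made as a fusion with a small-subunit protein, was at 45.2, 70.7 and 143 CPM. Fau, Eef1b2, Tpt1 and Rps3a1 are in the list of TOP mRNAs, and Rps3a1 is a ribosomal protein gene whose symbol lies outside the rule. The most opposite were Fto (-0.81), Eri3 (-0.80), Clec16a (-0.74), Zmym6 (-0.70) and Gm16759 (-0.68). Without the mixed clusters Fau stood at 0.98 and Fto at -0.75.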

How the data were processed

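Single-nucleus RNA sequencing (10x Genomics) was done on 3 libraries. The study's methods name Cell Ranger with STAR, a filter of 5% mitochondrial UMIs and removal of doublets with DoubletFinder. Software versions and the genome build were not given in the sources used here. Cluster means of mitochondrial genes above 5% show that the tables hold nuclei past that limit. The deposited tables give, for each cluster and gene, a mean count (a signal scaled by the authors to the median UMIs per nucleus), which comes out as whole UMIs after multiplying back for 100% of values within 0.001. These UMIs were recovered, summed and divided by cluster or library totals. The deposited log2 fold change and adjusted p-value columns hold the authors' own comparisons of clusters and were not used. No sample column was left unused.

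Ratios have conditional binomial intervals, single levels exact Poisson intervals and shares exact Clopper-Pearson binomial intervals, at 95%, for counting error only. UMI totals were 53980929, 57665213 and 111595518. A gene was called past 1.5-fold with at least 50 UMIs in the pair. Composition used members with at least 20 UMIs counted or expected in a cluster. Clusters were named from marker lists (counting genes with at least 10 UMIs and a level over 2 times the median over other clusters) and the 10 leading genes. No doublet caller could be run on cluster means. The named members were the 6 farthest above and below the sum in each comparison (at least 200 UMIs), the 8 most variable over clusters in each library, the copies with their counterparts, the stalk genes and 6 others, with the 4 most abundant genes of each list and the 10 most and 5 least similar genes. Members, lists and cluster classes were chosen with earlier results of these data known. Coordinates and exact shared stretches came from GENCODE M21 (GRCm38), which held 29565 of 29625 identifiers and all 80 members. Start windows came from RefSeq (GRCm38.p6), which matched 60 members. Some members are counted in the sums but not reported individually here. Scripts were tested on simulated data. Computations used scipy 1.17.1 and numpy 2.4.6 under Python 3.11.15, with pandas 2.3.3 for tables and matplotlib 3.10.9 for figures. Alternatives were the removal of clusters, equal weights, median scaling and other limits.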

Additional observations from a re-analysis of the deposited data

How the results depend on the processing

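No paired analysis was possible because each stage had 1 pooled library. With 1 library per stage, the spread between mice is unknown, and no difference between stages has a replicate check. The summed ratios of Mid_Ob over Ctrl, Ob over Mid_Ob and Ob over Ctrl were 1.08, 2.25 and 2.43 without the clusters of testis and epididymis, 1.46, 1.37 and 2.0004 without the mixed clusters, 1.46, 2.45 and 3.57 with every cluster weighted equally, and 1.56, 2.08 and 3.48 when scaled by the median gene ratio, which moves every log2 ratio by 0.16, 0.09 or 0.35. The number of members higher in Mid_Ob than in Ctrl was 6 without the testis and epididymis clusters and 7 at 2-fold, and that in Ob over Mid_Ob was 29 without the mixed clusters and 37 at 2-fold. With a minimum of 500 UMIs, 1 member was lower in Mid_Ob over Ctrl and 1 in Ob over Ctrl. Leaving out 1 cluster at a time, the adipocyte-like ratio ranged from 1.62 to 1.86 for Ob over Mid_Ob and from 1.83 to 2.10 for Ob over Ctrl. The macrophage-like ratio ranged from 1.17 to 1.43 for Mid_Ob over Ctrl, from 1.34 to 1.71 for Ob over Mid_Ob and from 1.72 to 2.19 for Ob over Ctrl. No summed ratio changed direction under any of these alternatives, but ratios of single members did. Without the testis and epididymis clusters 19 members turned direction in Mid_Ob over Ctrl, 0 in Ob over Mid_Ob and 1 (Rpl4) in Ob over Ctrl. Without the mixed clusters 3, 5 and 1 turned, among them Rpl4, Rps26, Rps27, Rpl36 and Rpl26 in Ob over Mid_Ob. The cause of these shifts was not tested.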

Other observations

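Several ribosomal protein names outside the rule were counted as well. Rps3a1, the small-subunit gene that is eS1 in the universal naming, was at 40.7, 48.3 and 110 CPM in Ctrl, Mid_Ob and Ob, and its highest level was 1688 CPM in mixed cluster 18 of Ob. Rpl22l1, the copy of Rpl22, was at 28.6, 31.0 and 51.2 CPM, with 147 CPM in germ cell-like cluster 12 as its highest level in Ctrl. Rpl7l1, which works in ribosome assembly, was nearly level at 24.9, 24.5 and 28.8 CPM.

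Rpl36al, looked at after the values of Rpl39l and Rpl10l had been seen, is an autosomal copy (chromosome 12) of the X-linked gene Rpl36a. Their coding sequences of 321 bases differ at 39 positions (87.9% identity). In Ctrl cluster 12 Rpl36al was at 440 CPM while Rpl36a was at 32.5 CPM, and over whole libraries Rpl36al was at 30.8, 34.5 and 37.8 CPM. Unlike Rpl39l and Rpl10l, it was therefore counted at similar levels in all 3 libraries. Rps27rt was at 2.19, 1.75 and 2.33 CPM.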
